A study of Mus musculus with 5 samples.

Results

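The matrix metalloproteases, the ADAM and ADAMTS proteases and the tissue inhibitors of metalloproteases were examined in HT22 cells, an immortalized mouse line of hippocampal origin, after knockdown of the long non-coding RNA GAS5. The genes were taken by symbol from the deposited counts table, as the protein-coding genes named Mmp, Timp, Adam or Adamts with a number, and 44 of 78 such genes had at least 10 counts summed over the 5 libraries, in a table of 55487 genes. They were 12 of 22 Mmp genes, 16 of 33 Adam genes, 12 of 19 Adamts genes and 4 of 4 Timp genes. Cells were transfected with siRNA at 10 nM, and after 48 h their poly(A) RNA was sequenced, with 1 library of GAS5 siRNA210, 2 libraries of GAS5 siRNA596 and 2 libraries of NC siRNA, and both GAS5 siRNAs form the KD group. The labels call the NC cells untreated, whereas the protocol and the study's methods give NC siRNA. All groups share the line and the transfection reagent INTERFERin, and no source says whether replicates are separate cultures, so that P-values measure the spread between these libraries only, which may be technical.

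The library totals ran from 30660265 to 36492134 counts. Gas5 itself had 90.3 and 76.0 CPM (counts scaled to the size of each library by the TMM method) in the NC libraries, 59.6 with siRNA210 and 65.8 in siRNA596 replicate 1, but 179 in the library labelled siRNA596 replicate 2. Gas5 in that library thus goes against its label, and earlier results of these data had shown that the library stands apart. The comparison of KD with NC is therefore given first for the other 4 libraries and then for all 5. The labelled neuronal origin was checked with markers. Rbfox3, Snap25, Nefl and Nefm had 0 counts in the 4 libraries, with 2 counts of Rbfox3 in the library labelled siRNA596 replicate 2. In contrast, the neuronal markers Map2 and Dlg4 were present at 68.8 to 86.9 CPM and 94.6 to 110 CPM. Tubb3 had 14.9 to 27.1 CPM, Slc17a7 2.66 to 3.71 and Camk2a 0.950 to 1.48 in the 4 libraries. Syt1, Syp and Grin1 had at most 6, 12 and 2 counts there. Of the neural progenitor markers, Nes had 446 to 509 CPM, Vim 2547 to 3166 and Pax6 40.3 to 49.3 there. The progenitor marker Sox2 had 0 counts in every library. The collagen gene Col1a1, from a list of fibroblast markers, was present at 3838 to 4413 CPM in the 4 libraries. Of the same list, Col1a2 had 710 to 1179, Col3a1 232 to 250, Pdgfra 31.3 to 44.7 and Pdgfrb 58.1 to 85.3 CPM there. In contrast, Lum had 0 counts in every library and Thy1 and Dcn had at most 8 and 28.

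Metalloproteases cut proteins outside the cell or at its surface, using a zinc ion held by histidines of the catalytic domain. Matrix metalloproteases (Mmp) break down collagens and other matrix proteins, the membrane-anchored ADAMs release the outer parts of cell-surface proteins, and the secreted ADAMTS enzymes process procollagens and proteoglycans. Most are made as inactive precursors that furin-like convertases or other proteases activate, and the Timp proteins block the active site. In the brain ADAM10 and ADAM17 shed the amyloid precursor protein, Notch ligands and receptors and cytokines, while ADAM11, ADAM22 and ADAM23 lack protease activity and bind the Lgi proteins at synapses.

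The zinc site was read from the coding sequence of the longest coding transcript of each gene in the GENCODE annotation of GRCm38. The pattern searched was a histidine codon and a glutamate codon, any 2 codons, a histidine codon, any 2 codons, a glycine or asparagine codon, any 2 codons and a last histidine codon, 11 codons in all. It was present in 34 of the 40 proteases, against 0.338% of 21592 protein-coding genes. The stretches below, 33 bases each and written in coding direction from 5′ to 3′, show the site of the enzymes on which the results turn, followed by 2 members without the pattern, aligned to Adam9. Capitals mark the histidine, glutamate and glycine codons of the pattern.

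Mmp14: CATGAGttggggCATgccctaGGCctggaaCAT
Adam9: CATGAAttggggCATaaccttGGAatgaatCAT
Adam10: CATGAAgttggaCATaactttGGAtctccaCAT
Adam17: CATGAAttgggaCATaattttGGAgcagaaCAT
Adam21: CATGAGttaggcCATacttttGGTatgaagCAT
Adamts1: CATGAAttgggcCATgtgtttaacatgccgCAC
Adamts5: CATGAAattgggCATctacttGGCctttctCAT
Adamts7: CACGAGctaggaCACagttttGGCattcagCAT
Adam4: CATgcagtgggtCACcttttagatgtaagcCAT
Adam22: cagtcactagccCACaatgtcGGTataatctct

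In GRCm38 the Mmp14 site lies at chr14:54437627-54437659 on the plus strand, in exon 5 of 10. The Adam9 site lies at chr8:24990326-24990358 on the minus strand, in exon 11 of 22, and the Adam17 site at chr12:21336732-21336764 on the minus strand, in exon 12 of 20. Other sites are interrupted by an intron. The Adam10 site runs from exon 9 into exon 10 of 16 (chr9:70754296-70761585, plus strand), the Adamts1 site from exon 3 into exon 4 of 9 (chr16:85799191-85799545, minus strand), the Adamts5 site from exon 2 into exon 3 of 8 (chr16:85878015-85887826, minus strand) and the Adamts7 site from exon 7 into exon 8 of 24 (chr9:90179456-90180640, plus strand). The site of Adam21 lies in the last of its 2 exons (chr12:81559922-81559954, minus strand), that of Adam4 in its 1 exon (chr12:81420763-81420795, minus strand) and that of Adam22 in exon 13 of 30 (chr5:8143064-8143096, minus strand). In Adamts1, Adamts4 and Adamts9, 3 of the 12 Adamts members, the glycine codon was not part of the site, and 31 members had all 5 capital codons.

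The 6 members without the pattern were all Adam genes, namely Adam11, Adam4, Adam32, Adam5, Adam22 and Adam3. Adam4 kept 3 of the 5 codons and Adam22 kept 2. These 6 were also expressed at a low level. CPM divided by the length of all exons of a gene in kilobases, which allows genes to be compared, gave 0 to 0.203 as the mean over the NC libraries of each of the 6, whereas 6 of the 10 Adam members with the pattern were above 1. All 12 Mmp members had the pattern. Codons for the furin-type cleavage sequence (arginine, any residue, lysine or arginine, arginine) were searched anywhere ahead of the zinc site. They were present in 27 of the 34, among them 8 of 12 Mmp, 8 of 10 Adam and 11 of 12 Adamts members. The share of other proteins with this short sequence is not given, and whether it is cleaved in these members was not tested.

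Among the 44 members, 2 inhibitors were the most abundant at the RNA level. In bulk RNA, the share of cells that express a gene and the RNA per cell cannot be told apart. Timp2, which inhibits most matrix metalloproteases and with Mmp14 takes part in the activation of Mmp2, had the highest level per length, at 206 ± 19.0 in NC (SD, n = 2). Its normalized counts were 750 and 854 CPM in the NC libraries, 758 with siRNA210, 788 in siRNA596 replicate 1 and 1099 in the library labelled siRNA596 replicate 2. Timp1, a secreted inhibitor that acts poorly on membrane-type Mmps, followed at 84.2 ± 9.54 per length. The values of these 2 genes lay above those of every protease in each of the 5 libraries. Timp3, which is bound to the matrix and also inhibits ADAM17, was far lower at 5.82 and 3.70 in the NC libraries, and Timp4 was near the counting limit with 14 counts in all. The 4 Timp genes together made up 52.0% to 53.3% of the summed level of the 44 members in the 4 libraries and 75.9% in the library labelled siRNA596 replicate 2. Timp2 alone held 34.6% to 38.7% in the 4 libraries. These shares depend on the length used. Per kilobase of the longest transcript, the NC mean of Timp2 moved from 206 to 216, that of Mmp14 from 32.6 to 60.0 and that of Adam15 from 21.8 to 34.3. In mRNA per length, Timp2 exceeded Mmp14 by 5.92 to 6.83 times in the 4 libraries and by 13.5 times in the library labelled siRNA596 replicate 2, but by 3.60 times in the NC mean when lengths were those of the longest transcript.

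**Figure D1:**
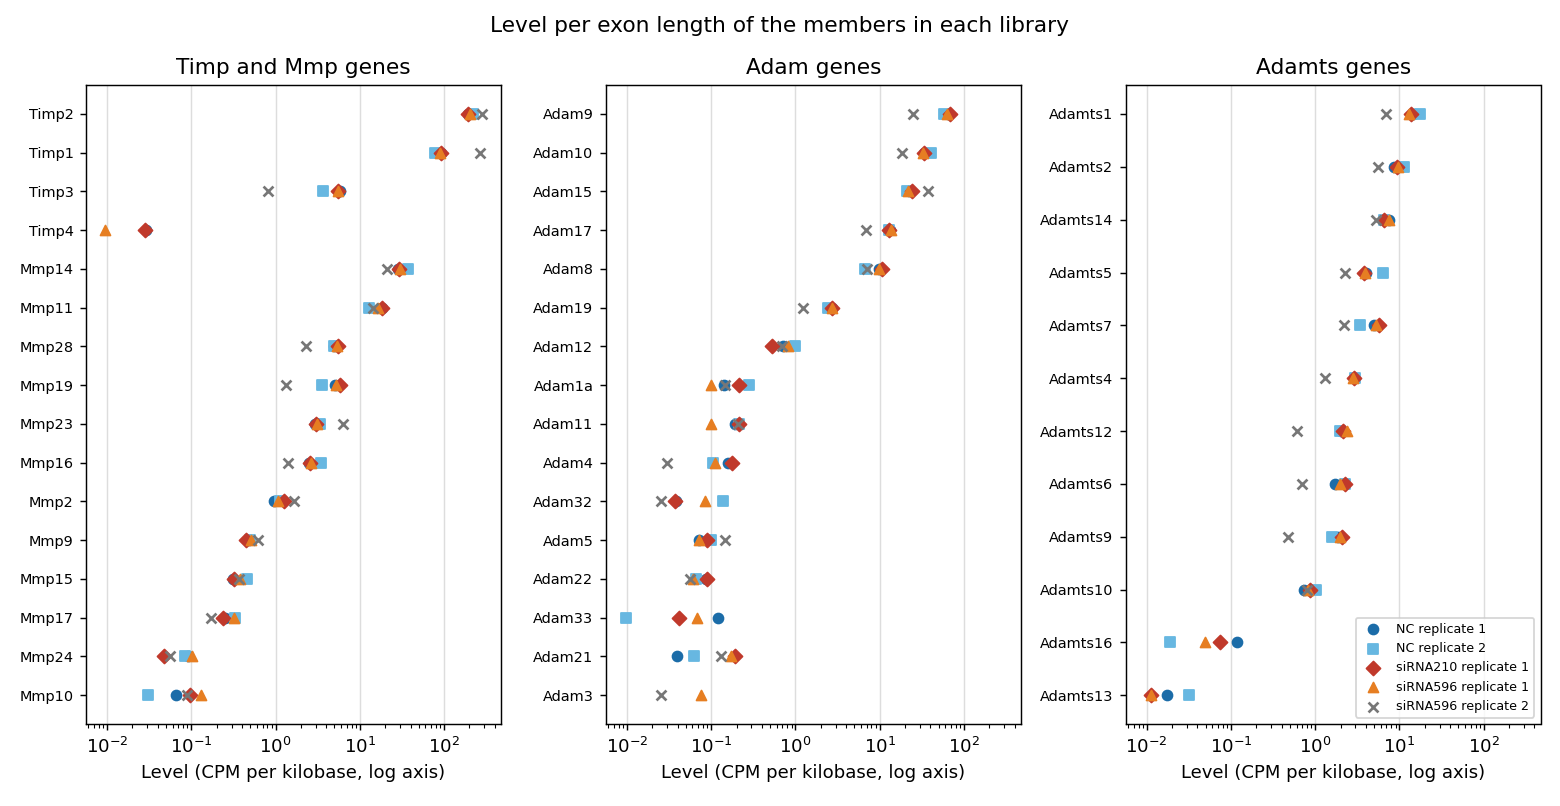
Level of each of the 44 members in each library, as CPM per kilobase of exon on a log axis, with 1 symbol per library and values of 0 left out. Timp2 at 206 and Timp1 at 84.2 (NC means) lead, Adam9 at 61.4 is the highest protease, and the crosses of the library labelled siRNA596 replicate 2 lie apart from the other symbols for many genes.

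Adam9, a broadly expressed sheddase, was the highest protease, with a level of 61.4 ± 5.29 per length in NC. Adam10, the constitutive alpha-secretase of the amyloid precursor protein, had 37.0 ± 5.23. Adam17, which releases tumor necrosis factor and ligands of the epidermal growth factor receptor, had 13.1 ± 0.407. Adam10 was 2.48 and 3.17 times as high as Adam17 in the NC libraries and 2.40 to 2.58 times as high in the KD libraries of the 4, and 1.89 times as high in the NC mean by the longest transcript. Adam15, which carries an integrin-binding sequence, stood at 21.8 ± 0.632, and Adam8, known from immune cells, at 8.18 ± 2.21. The 16 Adam members nonetheless had the lowest median of the families, 0.209, because 10 of them were below 1 per length. The neuronal ADAMs without protease activity were barely detected. Adam22 had 0.0762 and Adam11 0.203 per length, and Adam23 had 0 counts in every library. Of the Lgi genes that bind these ADAMs, Lgi1, Lgi2 and Lgi3 had 0 counts. An observed count of 0 still leaves room for an expected count of up to 3.

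Mmp14, the membrane-type enzyme that cuts collagen at the cell surface, led its family at 32.6 ± 6.25 per length in NC. Within each NC library Mmp14 was below Adam10, at 28.2 against 33.3 and at 37.0 against 40.7. In the library labelled siRNA596 replicate 2 Mmp14 was above Adam10, at 20.9 against 18.2. The order at the top depended on the length used, since per kilobase of the longest transcript the NC mean was 62.5 for Adam9, 60.0 for Mmp14 and 39.6 for Adam10. Mmp11, which furin activates inside the cell, had 15.6 ± 3.94. Mmp28 at 4.96, Mmp19 at 4.29 and Mmp23 at 3.13 completed the 5 highest of the family. The gelatinases were low, with 1.04 ± 0.124 for Mmp2 and 0.487 ± 0.00812 for Mmp9. Mmp3, the stromelysin induced by cytokines, had 2 counts in all and was not a member. It belongs to the cluster of 9 Mmp genes on chromosome 9, between bases 7272514 and 7699585, of which 5 had 0 counts and only Mmp10, with 24 counts, reached the limit of 10. The Adam genes of chromosome 8 were also uneven. Adam9 had 40688 counts in all, while its neighbors Adam32, Adam5 and Adam3 had 35, 50 and 10, and 8 of the 13 Adam genes of the chromosome had 0.

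Among the Adamts genes, Adamts1, a secreted protease of versican and aggrecan, had the highest level at 15.8 ± 2.14 per length in NC. Adamts2 and Adamts14, which remove the amino-terminal propeptide of fibrillar procollagens, had 9.95 ± 1.87 and 6.97 ± 0.694. Adamts5, the aggrecanase of cartilage, stood at 5.17 ± 1.64 and Adamts7, another secreted member, at 4.18 ± 1.12. The median of the family was 2.47, against 2.00 for the Mmp genes. At the limit of 10 counts, Adam3 was just inside with 10 counts, 8 of them in siRNA596 replicate 1, followed by Adamts13 with 13, and Mmp21 with 9 and Adam1b with 8 were just outside.

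The comparison of KD with NC asks which of these genes differ when GAS5 is lowered. In the 4 libraries, edgeR's quasi-likelihood test over 15867 genes found 0 of the 38 members tested at an adjusted P under 0.05, as it did for 0% of all genes, and DESeq2 gave 0 members and 1 gene in all. At an unadjusted P under 0.05, edgeR gave 4 members, namely Adamts1, Adamts5, Adamts7 and Adam21, against 3.30% of all genes, and DESeq2 gave 2, Adamts5 and Adamts7, against 2.32% of all genes. The lowest adjusted P among the members was 0.967 in edgeR. The study's criteria, an unadjusted P under 0.05 with a log2 fold change beyond 1 in size, were applied here to edgeR. Adam21 was the 1 member that passed, against 0.876% of all genes. The study itself used DESeq2, and in the DESeq2 fit made here Adam21 did not pass (DESeq2, unadjusted P = 0.0786). The log2 fold change was above 0 in 18 of 38 members and in 49.5% of all genes, and the median was -0.02 in the members and -0.00230 in all genes. The KD and NC libraries did not overlap in 11 of 38 members and in 32.8% of all genes.

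Adamts1 and Adamts5 are neighbors on chromosome 16, on the minus strand (Adamts1 at chr16:85793827-85803113, Adamts5 at chr16:85856173-85901828) with 53059 bases between them. Adamts1 had 75.9 and 91.9 CPM in the NC libraries, 72.2 CPM with siRNA210 and 69.6 CPM in siRNA596 replicate 1. Both KD values lay below both NC values, with NC replicate 2 the farther of the NC libraries. The log2 fold change was -0.25 with a standard error of 0.105 (edgeR, unadjusted P = 0.0435). Adamts5 had 43.3 and 68.3 CPM in NC, 40.7 CPM with siRNA210 and 41.9 CPM in siRNA596 replicate 1. Again the KD values were close to NC replicate 1 and away from NC replicate 2. The log2 fold change was -0.44 ± 0.18 (SE, edgeR, unadjusted P = 0.0374). Adamts7 differed in the other direction, with 31.2 and 21.3 CPM in NC, 36.3 CPM with siRNA210 and 32.9 CPM in siRNA596 replicate 1. Its log2 fold change was 0.40 with a standard error of 0.169 (edgeR, unadjusted P = 0.0424). The exons of Adamts7 share 122 bases with those of Tbc1d2b on the other strand, and since the sources used here do not state the strand setting, reads there cannot be assigned with certainty.

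Adam21, a gene known from testis, rested on few reads. Its reads came to 4 and 7 in the 2 NC libraries, 20 with siRNA210, 18 in siRNA596 replicate 1 and 10 in the library labelled siRNA596 replicate 2. The library of siRNA210 and siRNA596 replicate 1 were above both NC libraries, as was the library labelled siRNA596 replicate 2, and the log2 fold change in the 4 libraries was 1.81 with a standard error of 0.684 (edgeR, unadjusted P = 0.0263). Low counts were more often even than odd in these libraries. Counts of 1 to 10 were even in 63.7% to 69.7% of genes, against 49.1% to 50.3% for counts over 100 and up to 1000. What this means for the error of a count as low as that of Adam21 was not tested.

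**Figure D2:**
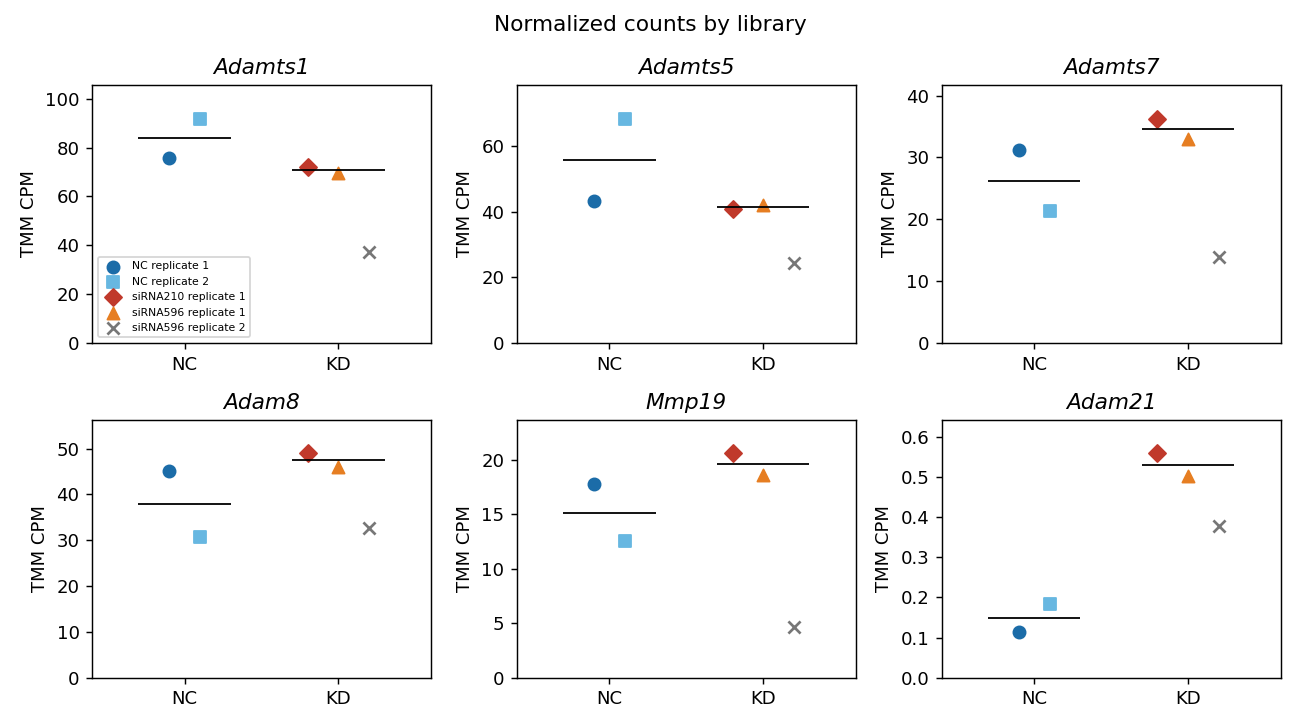
Normalized counts (TMM CPM, axes from 0) of 6 members in the NC libraries and the KD libraries, 1 symbol per library, with lines at the NC mean and at the mean of the KD libraries other than that labelled siRNA596 replicate 2. In Adamts5 the KD values of 40.7 and 41.9 lie near NC replicate 1 at 43.3, and NC replicate 2 at 68.3 stands apart.

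Other members named for their level or size of change did not pass an unadjusted P of 0.05. Mmp19, whose exons overlap those of Tmem198b by 789 bases on the other strand, had 17.7 and 12.6 CPM in NC, 20.6 with siRNA210 and 18.6 in siRNA596 replicate 1 (log2 fold change 0.37 with a standard error of 0.174, edgeR, unadjusted P = 0.0617). Adam8 had 45.2 and 30.7 CPM in NC against 49.0 and 46.1 CPM, with a log2 fold change of 0.32 (standard error 0.162, edgeR, unadjusted P = 0.0762). In both, NC replicate 2 was the lowest library of the 4. The 2 remaining members with a large log2 fold change had few counts, with -0.46 for Adam1a (standard error 0.493) and -0.37 for Adam11 (standard error 0.488). Of the 7508 exon bases of Adam1a, 4779 overlap Gm42878 and 1805 overlap Mapkapk5, both on the same strand. The sheddases lay closer to 0. Adam10 had 164 and 200 CPM in NC against 164 and 160 CPM in KD, a log2 fold change of -0.17 ± 0.103 (SE), Adam17 had 95.9 and 91.8 CPM against 92.5 and 97.0 CPM, a log2 fold change of 0.01 ± 0.0809, and Adam9 had 268 and 237 CPM against 281 and 261 CPM, a log2 fold change of 0.10 ± 0.0898. For these 3 genes the KD and NC values overlapped. The log2 fold change was -0.15 ± 0.120 (SE) for Mmp14, -0.06 ± 0.0882 for Timp2, 0.11 ± 0.0981 for Timp1 and 0.20 ± 0.179 for Timp3.

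The calls depended on which NC library was used. Compared with NC replicate 2 alone, the 2 KD libraries differed in 13 of 40 members at an unadjusted P under 0.05 (edgeR, 16.5% of all genes), with Timp1, Timp3, Mmp11, Mmp19, Adam8, Adamts7 and Adamts9 higher and Mmp14, Mmp16, Adam10, Adamts1, Adamts2 and Adamts5 lower in KD. Compared with NC replicate 1 alone, they differed in 1 of 38, Adam21 (2.52% of all genes). Each of these fits assumes that the lone NC library varies as the KD libraries do. The log2 fold change of Adamts5 was -0.73 against NC replicate 2 and -0.07 against NC replicate 1, that of Adamts1 was -0.38 and -0.10, and that of Adamts7 was 0.70 and 0.15. Without siRNA210, 0 of 40 members had an unadjusted P under 0.05 in edgeR, and without siRNA596 replicate 1 only Adam12 did, which had not been named by level or role.

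Each library was then set against the mean of the other 3, over those that averaged 1 CPM or more, 33 members and 12792 genes in all. Differences beyond 1.25-fold were counted in 14 members for NC replicate 2, 9 higher and 5 lower, against 21.4% of all genes. The count was 1 for NC replicate 1 (9.45% of all genes), 7 for siRNA210 (11.0%) and 3 for siRNA596 replicate 1 (8.41%). NC replicate 2 thus stood farthest from the rest, with a median absolute log2 ratio of 0.30 in the members and 0.15 in all genes. Its largest differences among members above 10 CPM in all 4 libraries were in Adamts5, with a log2 ratio of 0.70, and in Adamts7, Adam8, Timp3 and Mmp19, with -0.66, -0.61, -0.60 and -0.59. These comparisons have 1 library on 1 side and no test.

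**Figure D3:**
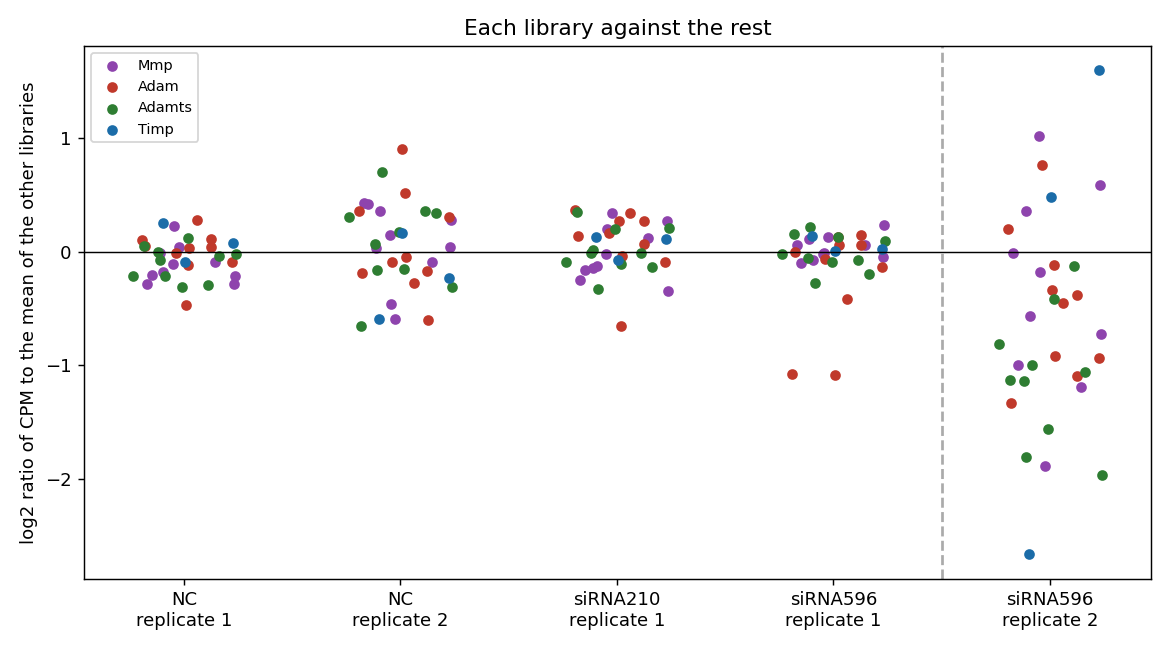
Log2 ratio of CPM in each library to the mean of the other libraries of the 4 (left of the dashed line) or of the library labelled siRNA596 replicate 2 to the mean of the 4 (right), for 33 members with at least 1 CPM, colored by family. NC replicate 2 has the widest scatter of its group, with a median absolute ratio of 0.30, and the library at the right has a median of -0.73.

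With all 5 libraries, edgeR tested 39 members among 16142 genes. None passed an adjusted P of 0.05 in edgeR (0% of all genes) or in DESeq2. In edgeR, Adam21 was the 1 member with an unadjusted P under 0.05, against 0.372% of all genes. It was also the 1 member by the study's criteria applied to edgeR, against 0.353% of all genes. Its log2 fold change was 1.67 with a standard error of 0.665 (edgeR, unadjusted P = 0.0466). DESeq2 gave 0 members at an unadjusted P under 0.05, against 0.539% of all genes. The log2 fold change was above 0 in 11 of 39 members and in 51.0% of all genes, with a median of -0.23 in the members and 0.01 in all genes. With an offset for length and GC content these medians were -0.07 and 0.08. Comparing siRNA596 alone with NC, 2 libraries each, edgeR gave 0 of 38 members at an unadjusted P under 0.05, against 0.259% of all genes, and DESeq2 gave 1, Timp1, against 2.46% of all genes. The siRNA596 libraries here include the one labelled replicate 2, in which Gas5 goes against the label.

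The library labelled siRNA596 replicate 2 differed from the mean of the other 4 by more than 2-fold in 13 of 33 members, against 35.0% of all genes. Timp1 and Mmp23 were the 2 that were higher. Timp1 had 68.8 to 82.3 CPM in the other 4 and 235 CPM in that library, and Mmp23, a small membrane-bound Mmp, was 2.02 times as high. The 11 lower members included Timp3, at 6.59 CPM against 30.1 to 47.4 CPM, Mmp19 at 4.69 CPM against 12.6 to 20.6 CPM and Adam9 at 104 CPM against 237 to 281 CPM. The inhibitors thus moved apart in that library, with log2 ratios of 1.59 for Timp1, 0.48 for Timp2 and -2.66 for Timp3. Adam15 at 0.76 was above the other 4 libraries, whereas Adam10 at -0.94 and Adam17 at -0.92 were below them.

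Transcript length moved with these ratios. Across genes, which are not independent replicates, Spearman's rho between the length of the longest transcript and the log2 ratio of that library was -0.432 over the 33 members and -0.578 over 12715 genes, whereas it was between -0.157 and 0.205 in the members for the other 4 libraries. The median log2 ratio was -0.73 in the members and -0.04 in all genes. The order of the families by length was not their order by ratio. The tested Adamts members, with a median longest transcript of 5379 bases, had a median ratio of -1.09, the Adam members, with 4469 bases, -0.42, the Timp members, with 3709 bases, 0.48, and the Mmp members, with 3402 bases, -0.52. These medians cover the 38 members tested in the 4 libraries, with 3 in the Timp family. Adamts16 and Adam33 had 0 counts in that library, so they have no ratio and enter the length medians only. The longest transcript has 883 bases in Timp1 and 4722 in Timp3, which have the highest and the lowest ratio of the 33 members. The part of length in these differences was not tested.

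**Figure D4:**
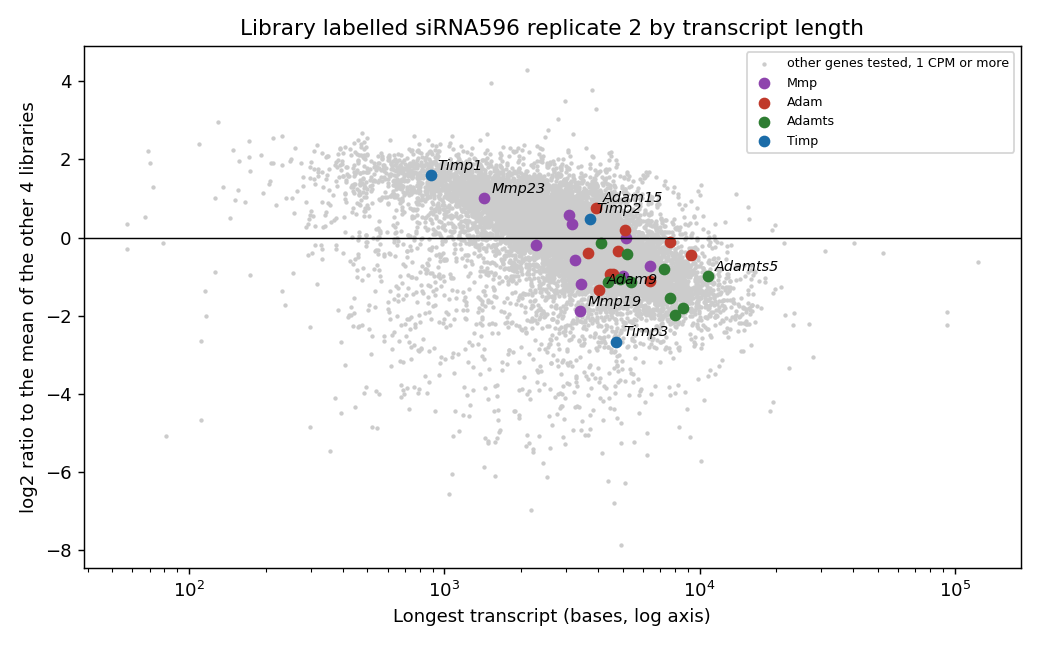
Log2 ratio of the library labelled siRNA596 replicate 2 to the mean of the other 4 libraries against the length of the longest transcript in bases (log axis), for members colored by family and other genes with at least 1 CPM in gray. Timp1 at 1.59 and Timp3 at -2.66 are the extremes among the members, and the gray points slope downward with length (rho -0.578 over 12715 genes).

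Genes that act with the metalloproteases were read from lists, with no gene of any list at an adjusted P under 0.05 in edgeR in the 4 libraries. The median log2 fold changes of these lists ran from -0.11 in the convertases to 0.13 in the matrix substrates of the ADAMTS enzymes, against -0.00230 in all genes. Of the escorts and regulators of ADAM10 and ADAM17, 0 of 8 tested had an unadjusted P under 0.05 in the 4 libraries, and Rhbdf1, which escorts ADAM17 toward the cell surface, had 81.1 and 87.5 CPM in NC and 86.0 and 80.9 CPM in KD. Of the activating convertases 0 of 3 passed, and Furin had 83.3 and 100.7 CPM in NC against 85.3 and 85.4 CPM in KD.

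Among cell-surface and matrix regulators, 1 of 8 had an unadjusted P under 0.05 in edgeR (3.30% of all genes), and it was lower in KD. Thbs1, a matrix glycoprotein, had 272 and 579 CPM in NC against 273 and 277 CPM in KD (log2 fold change -0.63, edgeR, unadjusted P = 0.0401). Only NC replicate 2 stood apart, as in Adamts5. Bsg, which induces Mmps in neighboring cells, had its lowest value in the same library, with 1832 and 1006 CPM in NC and 1992 and 1742 CPM in KD. None of the 4 astacin and procollagen proteases tested passed, and 2 of 4 ADAMTS-like proteins, which lack a catalytic domain, were higher in KD at an unadjusted P under 0.05. Adamtsl1 had 5.91 and 3.73 CPM in NC against 8.97 and 7.51 CPM (log2 fold change 0.77, edgeR, unadjusted P = 0.0120). Adamtsl4 had 154 and 145 CPM in NC against 178 and 166 CPM (log2 fold change 0.20, edgeR, unadjusted P = 0.0402). In both genes the KD values were above both NC values, and 32.8% of all genes had KD and NC libraries that did not overlap.

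Of the proteins that ADAM10 and ADAM17 shed, 2 of 18 tested were higher at an unadjusted P under 0.05 in edgeR and none lower, where 3.30% of all genes passed. In both of them NC replicate 2 was the lowest of the 4 libraries. The receptor gene Notch3 had 97.7 and 68.5 CPM in NC against 104 and 106 CPM in KD (log2 fold change 0.34, unadjusted P = 0.0406), and the growth factor gene Areg had 10.9 and 6.04 CPM against 13.0 and 12.1 CPM (log2 fold change 0.57, unadjusted P = 0.0451). App itself had 402 and 437 CPM in NC and 433 and 395 CPM in KD, so that its groups overlapped. Of the matrix substrates of the ADAMTS enzymes 0 of 6 passed, and Fn1, the most abundant of them, had 4460 and 4261 CPM in NC and 4958 and 4821 CPM in KD. With all 5 libraries, no gene of these lists had an unadjusted P under 0.05 in edgeR.

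The inhibitor genes Timp1, Timp3 and Timp4 lie inside synapsin genes on the opposite strand, Timp1 in Syn1, Timp3 in Syn3 and Timp4 in Syn2. Timp3 shares 1733 exon bases with Syn3, which had 10 to 16 counts in the 4 libraries against 1157 to 1668 for Timp3. Timp1 shares none with Syn1. Exon overlap with a neighbor on the other strand also touched Adam15 (1263 bases with the antisense gene 4731419I09Rik), Mmp28 (466 bases with 1700020L24Rik), Adam17 (311 bases with Iah1) and Mmp11 (155 bases with Chchd10), and their values carry that uncertainty.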

How the data were processed

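HT22 cells were given GAS5 siRNA210 (1 library), GAS5 siRNA596 (2) or NC siRNA (2). The counts deposited by the authors are whole reads per gene without normalization, made per the labels with HISAT2 2.1.0, SAMtools 1.7 and featureCounts 2.0.1 on GRCm38; the strand setting and the handling of multi-mapping reads are not given in the sources used here. The authors' deposited DESeq2 1.26.0 table holds fold changes and P-values of KD against NC and was not used. Gene names, exon lengths and coding sequences came from GENCODE, which named 99.53% of identifiers. Tests used edgeR 4.0.16 in R 4.3.3 (TMM, filterByExpr, quasi-likelihood, Benjamini-Hochberg over all genes tested), with DESeq2 1.42.0 as an alternative. The script was tested on simulated data. Levels are TMM CPM per kilobase of exon. With 2 libraries per group precision is limited by the number of libraries. Replicate numbers of siRNA596 and NC were checked for pairing, which 2 libraries per group cannot decide. Python 3.11.15 with matplotlib 3.10.9 drew the figures.

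The members, gene lists and tests were chosen with earlier results of these data known. Members with values were named by rule: every Timp gene, the 5 highest per length in NC in each protease family, those with an unadjusted P under 0.05 in the fit of 4 or 5 libraries, the 3 largest changes in each direction at 1 CPM or more, Adam10, Adam17, Adam11, Adam22, Adam23, Mmp2, Mmp3, Mmp9, Mmp14 and Adamts1 for their roles, and genes next to the 10-count limit. List genes were named for an unadjusted P under 0.05 or, at most 2 per list, for their level, and 1 list is not reported here. Other genes, the zinc sites, the comparison of each library with the rest, the even counts and the overlapping exons were chosen after the data were seen. The other processing settings tried are given in the closing section.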

Additional observations from a re-analysis of the deposited data

Results flagged for a closer look

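Mmp9 and Adam22 had the siRNA210 library on 1 side of both NC libraries and the 2 libraries labelled siRNA596 on the other side. Replicate 2 of these is the library in which Gas5, at 179 CPM against 76.0 and 90.3 CPM in NC, goes against its label. For Mmp9, a gelatinase, the log2 ratio of the CPM in siRNA210 to the mean CPM of the libraries labelled siRNA596 was -0.3329, with CPM values of 1.705 and 1.75 in NC, 1.59 with siRNA210, 1.82 in siRNA596 replicate 1 and 2.20 in the library labelled replicate 2. For Adam22, an ADAM without protease activity, it was 0.6299, with CPM values of 1.25 and 0.938 in NC, 1.28 with siRNA210, 0.866 in siRNA596 replicate 1 and 0.795 in the library labelled replicate 2. These values rest on few reads. Mmp9 had 60 and 67 counts in NC, 57 with siRNA210 and 65 and 58 in the libraries labelled siRNA596. Adam22 had 44 and 36 in NC, 46 with siRNA210 and 31 and 21 in the libraries labelled siRNA596. The share of all genes with such a split is not given, and the difference between the siRNAs was not tested, since siRNA210 has 1 library.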

How the results depend on the processing

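Of 287 log2 fold changes of 24 named members recomputed for KD against NC in the 4 libraries, 258 kept their direction and 29 did not. The count of 4 members at an unadjusted P under 0.05 became 2 with DESeq2, 2 with an offset for length and GC content (Adamts5 and Adamts7 no longer passed), 6 of 44 with no filter (Adam8 and Mmp19 were gained), 3 with robust fitting (Adamts5 no longer passed), 3 of 34 with a minimum of 10 counts in every library (Adam21 was not tested) and 1 with all 5 libraries, and 0 to 13 with a library left out. The median of -0.02 became -0.056 with the offset, -0.23 with all 5 libraries and -0.021 to 0.030 with a library left out. With all 5 libraries, values of the opposite sign were 0.14 for Timp2, -0.28 for Timp3, -0.17 for Mmp28, -0.049 for Mmp19, 0.39 for Mmp23, -0.23 for Adam9, -0.23 for Adam17, -0.11 for Adamts14 and 0.11 for Mmp9. Adam17 was at -0.0054 with library size only, and Adamts14 was at -0.035 and Adam22 at 0.0098 with the offset. Leaving out a library gave ranges across 0 for Timp2 (-0.15 to 0.044), Timp1 (-0.0039 to 0.22), Timp3 (-0.087 to 0.56), Mmp14 (-0.34 to 0.059), Mmp11 (-0.093 to 0.42), Mmp23 (-0.13 to 0.066), Adam15 (-0.015 to 0.16), Adam17 (-0.023 to 0.044), Adamts2 (-0.26 to 0.13), Adamts14 (-0.079 to 0.12), Adam1a (-1.10 to 0.12), Adam11 (-1.04 to 0.088), Adam22 (-0.34 to 0.23) and Mmp9 (-0.12 to 0.070), and 10 of these changes came without NC replicate 2. With all 5 libraries the count of 1 became 0 with DESeq2, library size only, no filter or a minimum of 10 counts in every library, and 0 to 4 with a library left out, and the median of -0.23 became -0.07 with the offset and -0.36 to -0.022 with a library left out. For siRNA596 against NC, the count of 0 became 1 (Timp3) with the replicate block and 1 (Timp1) with DESeq2. The deviations of same-numbered libraries of siRNA596 and NC had r = 0.0889. With 2 libraries per group the pairs mirror each other, and 1 library is that in which Gas5 goes against its label. This value therefore cannot decide whether same-numbered libraries are paired. The median NC level of 1.99 became 2.70 per kilobase of the longest transcript, where Mmp14 moved from 32.6 to 60.0. The cause of these changes was not tested. Adam21 had 4 to 20 counts per library.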
